A study of Bos taurus with 12 samples.

Results

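Transcript abundance in endometrium that was later receptive or non receptive was compared at day 3 of the estrous cycle. The comparison takes the 6 day 3 pools of the 12 pools in the series, 3 of the high receptive group (HR3) and 3 of the low receptive group (LR3), selected by the receptivity and the day in their sample records. All donors were estrous-synchronized Simmental heifers without further treatment named in the labels. Endometrium was taken with a cytobrush one cycle before embryo transfer, RNA of 5 biopsies was combined into each pool, and each pool was hybridized to one Affymetrix bovine array. The group was assigned afterwards, from whether a pregnancy was detected after transfer of an in vitro-produced blastocyst in the following cycle. HR3 and LR3 therefore differ in a later outcome, the biopsied cycle held no embryo, and 1 pool averages over several animals, so that the spread between pools is smaller than the spread between heifers would be. The HR7 and LR7 pools of day 7 enter the linear model and 1 comparison.

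In the first days after estrus the bovine corpus luteum forms, circulating progesterone starts to climb and estrogen priming fades. The endometrium consists of a luminal epithelium that later meets the embryo, glands that secrete nutrients and proteins into the uterine lumen, and a stroma of fibroblasts, vessels and resident leukocytes in a collagen-rich matrix. Glucose transporters, secreted proteins and adhesion molecules of this tissue are regulated by ovarian steroids, and the epithelium takes up and secretes what the embryo will meet once it leaves the oviduct.

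Of 24016 non-control probe sets, 7336 varied by a standard deviation of at least 0.2 over the 12 arrays and lay above the array median on every array of at least 1 group. They carry the symbols of 3784 genes. This filter favours a difference for genes that passed it only through the group where they were high. Array medians lay between 6.69 and 6.77 log2 units in HR3 and between 6.64 and 6.74 in LR3, and 312 to 385 probe sets per day 3 array stood at 0, the floor of the scale. Pairs of day 3 arrays correlated across probe sets with r between 0.953 and 0.967, within and between the groups. The first principal component (36.4% of the variance) did not separate the groups: HR3 pools scored -11.4, -7.74 and 11.04, and LR3 pools 21.4, 8.33 and -21.7. On the second component (30.3%) HR3 pools scored 3.12, -13.74 and -19.02, and LR3 pools 19.49, -1.95 and 12.11. There HR3 pools 2 and 3 lay below every LR3 pool, and HR3 pool 1 lay among the LR3 pools. The median SD of a gene over 3 pools was 0.169 in HR3 and 0.227 in LR3.

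The tissue label was checked against marker genes. KRT18, KRT19, CDH1, EPCAM, CLDN7 and ELF3, which mark epithelium, lay above the array median in all 6 pools, as 10 of 13 epithelial markers did. So did VIM, LUM, DCN and COL3A1 of fibroblasts. ESR1, PGR and HOXA10, which are known from uterine tissue, lay below the median in all 6 pools with log2 signals of 4.07 to 5.61, and so did 6 endothelial markers (PECAM1, CDH5, VWF, TEK, KDR and CLDN5). Of the longer endothelial list, EMCN (8.16 to 8.95) and RAMP2 (6.80 to 8.04) lay above it in all 6 pools. Whether these probe sets perform poorly or the transcripts are scarce was not tested. In a mixed biopsy, fewer cells of a type and less RNA per cell cannot be told apart.

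No probe set differed between HR3 and LR3 after adjustment: 0 of 7336 (0.0%) had an adjusted p under 0.05 in limma, and the lowest adjusted p was 0.358. At an unadjusted p under 0.05, limma listed 516 probe sets (7.03%), 309 with higher (4.21%) and 207 with lower (2.82%) abundance in HR3. An ordinary linear model without moderation listed 546, and none after adjustment. Centring each array on its median turned the split from 59.9% to 48.5% higher in HR3, with 262 higher and 278 lower. Counted by gene, 157 were higher (4.15%) and 78 lower (2.06%). The pools of the groups did not overlap for 216 genes that were higher (5.71%) and 165 that were lower (4.36%). The mean was higher in HR3 for 53.5% of genes. The median difference over all tested genes was 0.02, quartiles -0.13 and 0.17, and 23 genes (0.608%) differed by at least 1.0 log2 unit. With 3 pools a group, the smallest p that an exact permutation test of 1 gene can give is 0.1. All differences below are HR3 minus LR3 in log2 signal, ± the moderated standard error over 3 pools per group, and no difference passed adjustment; "higher" and "lower" refer to the group means.

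Pool 1 of HR3 lay near the LR3 pools in the signal of 2 of 4 control transcripts. The 5' minus 3' signal of the bacterial control transcript dap, spiked in before labelling, was -2.64, -1.53 and -1.37 in HR3 and -2.83, -2.42 and -2.59 in LR3, and that of thr was -3.21, -1.97 and -1.83 against -3.34, -3.13 and -3.42. For the other two controls it did not lie among the LR3 pools. The value of lys was -0.63, -1.0 and -0.7 in HR3 and -0.33, -0.12 and -0.2 in LR3, and that of phe -0.5, -1.56 and -0.6 against -0.99, -0.93 and -0.96. Among the 157 genes that were higher, pool 1 was the lowest HR3 pool for 125 (79.6%), against 38.3% of all tested genes. Among the 78 that were lower it was the highest for 49 (62.8%), against 34.2%. With the dap value as a covariate 162 probe sets had an unadjusted p under 0.05, 82 higher and 80 lower, and with thr 266.

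**Figure D1:**
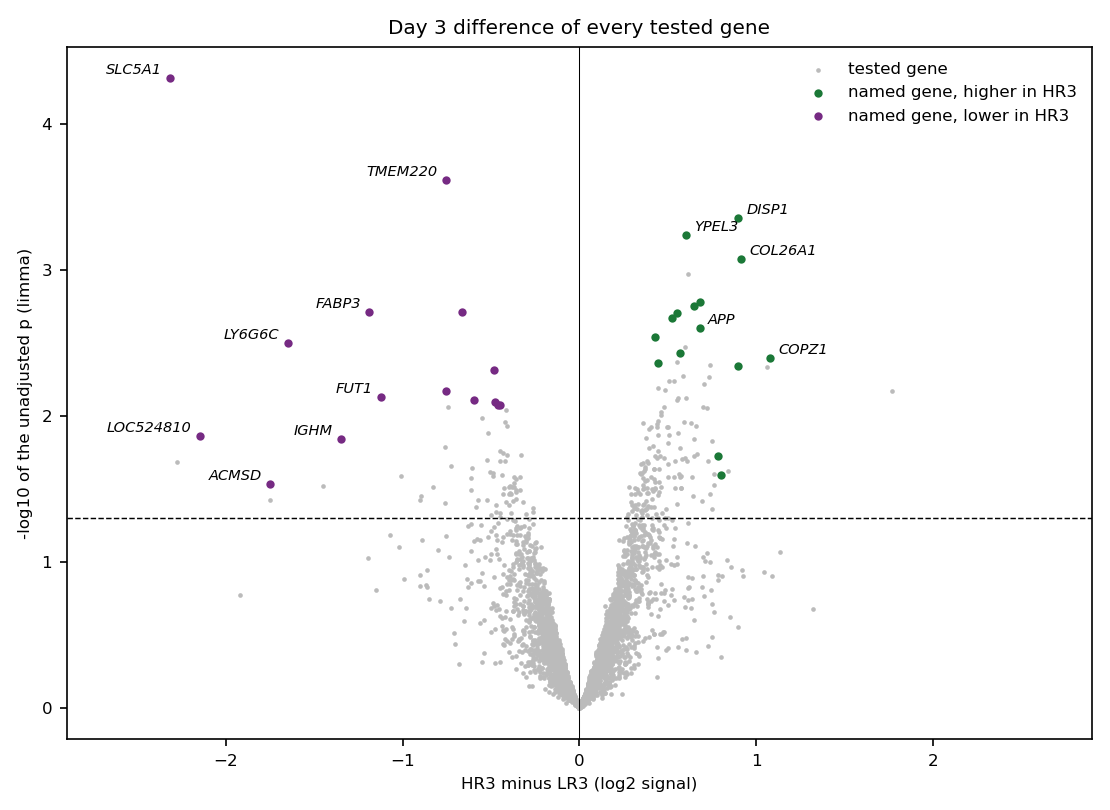
Each point is 1 of the 3784 tested genes, with the HR3 minus LR3 difference in log2 signal on the x axis and -log10 of the unadjusted limma p on the y axis. The dashed line marks the limit of an unadjusted p of 0.05, coloured points are the genes named for low p or large difference, and SLC5A1 at -2.31 stands farthest up on the left side.

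The sodium-glucose cotransporter SLC5A1, which moves glucose into epithelial cells against its gradient, had the lowest p of all tested genes. Its log2 signal was 4.07, 4.56 and 4.35 in HR3 pools 1 to 3 and 7.68, 6.57 and 5.67 in LR3 pools 1 to 3. Every LR3 pool lay above every HR3 pool, and the LR3 pools were spread far more widely than the HR3 pools. All 3 HR3 pools and LR3 pools 2 and 3 lay below the median of their array, and the gene was tested because its day 7 pools lay above it. The difference was -2.31 ± 0.38, with an unadjusted p of 4.88e-05 and an adjusted p of 0.358 in limma. Without LR3 pool 1 it was -1.79. LR3 pool 3 lay nearest to the HR3 pools, so leaving it out had to widen the difference, to -2.80. The adjusted p of SLC5A1 was then 0.00834, and with array weights 0.0357. Without LR3 pool 1 no probe set passed adjustment.

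FABP3, a carrier of fatty acids in the cytosol, measured 5.57, 6.17 and 5.82 in HR3 and 7.11, 7.14 and 6.87 in LR3. The LR3 pools lay close together and the groups did not overlap, with a difference of -1.19 ± 0.30 (unadjusted p = 0.00195). PISD, the mitochondrial enzyme that makes phosphatidylethanolamine from phosphatidylserine, was at 7.16, 7.24 and 6.90 in HR3 and 8.14, 7.51 and 7.64 in LR3 (-0.66 ± 0.17). Of the 35 tested enzymes and carriers of fatty acids and triglycerides, 16 were higher and 19 lower, and FABP3 and PISD were the 2 with an unadjusted p under 0.05 (5.71% beside 6.21% of all tested genes). The fatty acid transporters SLC27A1 (-0.39) and SLC27A6 (-1.75) were also lower at that limit, with overlapping pools, and SLC27A6 stood at the floor of 0 in HR3 pool 1.

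TMEM220, a membrane protein of little known function, had the second lowest p among these genes. Its signal was 8.24, 7.78 and 8.08 in HR3 and 8.83, 8.69 and 8.84 in LR3, a difference of -0.75 ± 0.15 (unadjusted p = 0.000243, adjusted p = 0.446). PIP, a secreted prolactin-induced protein, measured 6.47, 5.78 and 6.18 in HR3 and 7.05, 7.06 and 6.58 in LR3 (-0.75 ± 0.23). LY6G6C, a GPI-anchored surface protein, was at 4.22, 4.14 and 4.83 in HR3 and 7.37, 5.48 and 5.29 in LR3. LR3 pool 1 was far above the others for this gene, and the difference of -1.65 ± 0.45 became -0.99 without it. Of the day 3 pools only LR3 pool 1 lay above the median of its array, and LY6G6C was tested through its day 7 pools.

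Enzymes of glycan processing lay on both sides. FUT1, a fucosyltransferase that builds the H antigen on cell surface glycans, measured 4.73, 4.52 and 4.34 in HR3 and 5.06, 5.45 and 6.45 in LR3. The difference was -1.12 ± 0.35, and -0.73 without LR3 pool 3; a second FUT1 probe set gave -0.45. All 6 values lie below the array medians, and the gene was tested through its LR7 pools. The Golgi mannosidase MAN2A1 was at 6.73, 6.73 and 6.41 in HR3 and 7.09, 7.04 and 7.19 in LR3 (-0.48 ± 0.14). Its paralog MAN2A2 went the other way with 6.01, 6.82 and 6.65 in HR3 and 5.73, 5.99 and 5.66 in LR3 (0.70 ± 0.22), where HR3 pool 1 stood next to the LR3 pools. Of 43 tested glycosyltransferases, mannosidases and mucins, 22 were higher and 21 lower.

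The other genes lower in HR3 by this ranking showed smaller differences. They comprise WIPI1, an autophagy protein (-0.48), the lysosomal transporter ATP13A2 (-0.45), the nucleic acid-binding protein FUBP3 (-0.46, with a second probe set at 0.22) and SZRD1 (-0.59). SZRD1 was at 8.19, 8.17 and 8.19 in LR3 and at 8.04, 7.57 and 7.16 in HR3, so the difference came mostly from HR3 pools 2 and 3, and it was -0.38 without pool 3. The difference of WIPI1 was -0.32 without LR3 pool 3. ACMSD, an enzyme of tryptophan breakdown, was listed at 0 in HR3 pool 1, at 2.94 and 2.14 in the other HR3 pools and at 3.70, 3.52 and 3.10 in LR3, all below the array medians, and it was tested through its HR7 pools. Its difference of -1.75 was -0.90 without HR3 pool 1.

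Immunoglobulin transcripts were among the largest differences. IGHM, the constant part of the IgM heavy chain, was at 7.13, 7.31 and 7.4 in HR3 and 7.73, 8.09 and 10.06 in LR3. LOC524810, for which RefSeq lists immunoglobulin heavy chain synonyms, was at 5.64, 6.23 and 6.19 in HR3 and 7.01, 8.48 and 9.01 in LR3. LOC524810 passed the filter only through LR3, where it was high. Neither gene overlapped between the groups, and LR3 pool 3 was the highest for both. The differences were -1.35 ± 0.47 and -2.15 ± 0.75, with -0.63 and -1.73 without LR3 pool 3. JCHAIN, which joins IgM and IgA multimers, was at 8.23, 7.82 and 7.68 in HR3 and 7.81, 8.61 and 10.37 in LR3 and overlapped (-1.02). The B cell surface markers CD79A and MS4A1 lay below the array median in all 6 pools, and both had their lowest value in LR3 pool 3 (2.31 and 3.28). Of 8 tested B and plasma cell genes, 3 were higher and 5 lower, and the neonatal Fc receptor FCGRT, which transports IgG across epithelia, was higher (0.42).

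LR3 pool 3 also had the highest value of several inflammatory genes. CXCL8, the main chemokine for neutrophils, was at 5.06, 4.72 and 4.73 in HR3 and 4.67, 7.11 and 9.56 in LR3. LR3 pool 1 lay at the level of the HR3 pools, and the difference of -2.28 ± 0.86 was -1.05 without LR3 pool 3. S100A12, a calcium-binding protein of neutrophils, was at 7.47, 7.28 and 7.50 in HR3 and 7.91, 7.78 and 9.05 in LR3 (-0.83 ± 0.34, and -0.43 without LR3 pool 3). Of the 7 tested neutrophil genes, 2 were higher and 5 lower, with a median of -0.26, and -0.05 without that pool. The mean log2 level of 3 neutrophil markers ran from 6.55 to 7.19 in HR3 and from 7.14 to 8.14 in LR3, and none of them was at 0.

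Of 26 tested chemokines and inflammatory cytokines, 11 were higher and 15 lower, and 3 of each direction had an unadjusted p under 0.05 (23.1% beside 6.21%). Beside CXCL8, the defensin DEFB4A (-0.90, and -0.51 without HR3 pool 1) and the interferon-induced chemokine CXCL10 (-0.76) were lower. NFKBIA, the inhibitor that holds NF-kappaB in the cytosol, was higher with 10.26, 10.42 and 10.42 in HR3 and 9.97, 10.12 and 9.91 in LR3 (0.37 ± 0.14). CXCL3 (0.69) and the adhesion molecule VCAM1 (0.47, and 0.18 without LR3 pool 1) were higher as well. The median of the list was -0.12, and 0.06 without LR3 pool 3. T and NK cell genes had 5 higher and 11 lower of 16 (median -0.09, and 0.09 without LR3 pool 3), and interferon-stimulated genes 16 higher and 13 lower of 29.

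**Figure D2:**
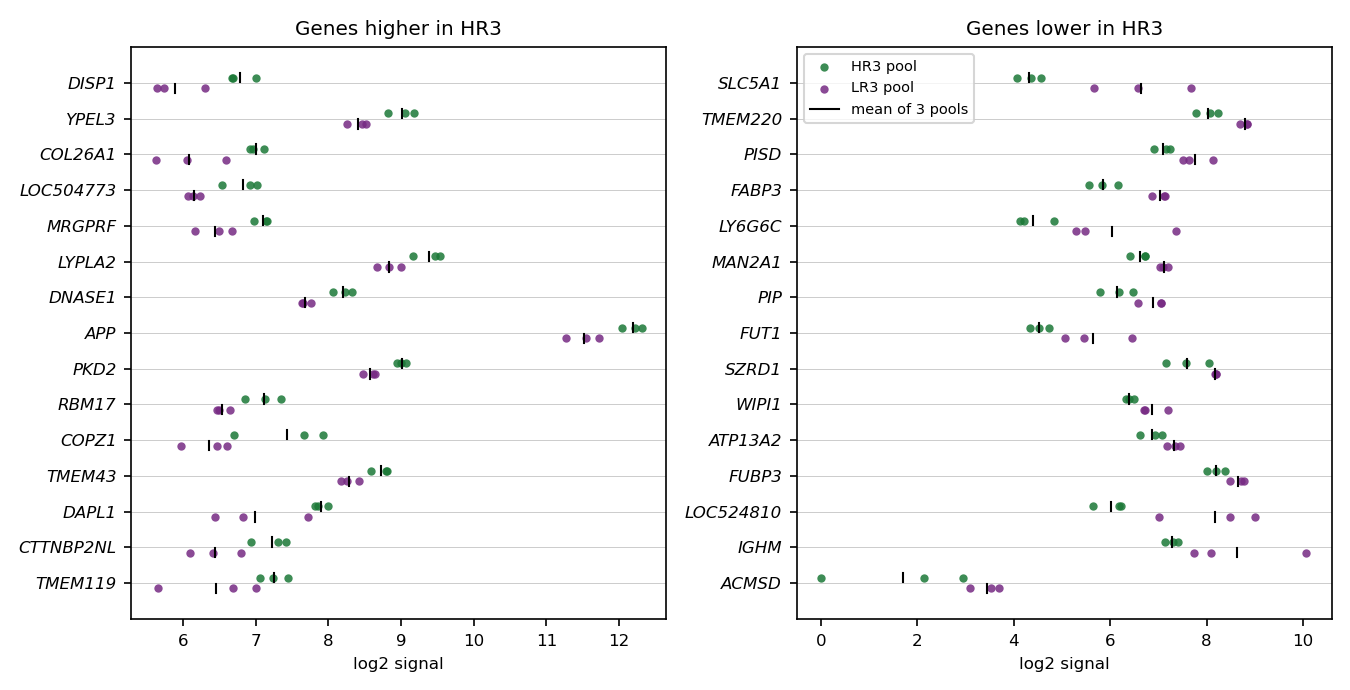
The log2 signal of each HR3 and LR3 pool (points) and the group mean (black bar, 3 pools) is shown for the 15 genes higher and the 15 genes lower in HR3 that were named for low p or large difference. The groups do not overlap for any of them because non-overlap was part of the choice, and LR3 pools spread widest for SLC5A1, LY6G6C, LOC524810 and IGHM.

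Among the genes higher in HR3, DISP1 had the lowest p. DISP1 releases lipid-modified hedgehog ligands from the cells that make them. Its signal was 6.67, 6.69 and 7.00 in HR3 and 6.30, 5.64 and 5.73 in LR3, a difference of 0.90 ± 0.19 (unadjusted p = 0.000441, adjusted p = 0.531). Of the day 3 pools only HR3 pool 3 lay above the median of its array, and DISP1 was tested through its day 7 pools. Its unadjusted p stayed under 0.05 in all 18 alternative settings that held it. In the list of hedgehog and HOX genes it was joined by HOXD10 (0.37) at that limit (12.5% beside 6.21% of all tested genes). Of 16 members, 9 were higher and 7 lower. HOXD10 passed the filter only through HR3, where it was high.

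YPEL3, which is known to restrain cell growth, was at 8.82, 9.05 and 9.18 in HR3 and 8.52, 8.26 and 8.46 in LR3 (0.60 ± 0.13). APP, the amyloid precursor protein, was at 12.04, 12.32 and 12.22 in HR3 and 11.55, 11.72 and 11.27 in LR3 (0.68 ± 0.18). The pools of the groups did not overlap for either gene. PKD2, a cation channel of the primary cilium and endoplasmic reticulum, had 9.07, 8.95 and 9.0 in HR3 and 8.62, 8.64 and 8.47 in LR3, and 2 probe sets gave 0.43 and 0.38. DNASE1, a secreted nuclease, was at 8.23, 8.06 and 8.32 in HR3 and 7.65, 7.63 and 7.76 in LR3 (0.52 ± 0.14).

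LYPLA2, a thioesterase that removes palmitate from proteins, was higher by 0.55, and its second probe set gave 0.31. The orphan receptor MRGPRF (0.65), LOC504773 (0.68), the nuclear envelope protein TMEM43 (0.44) and the splicing factor RBM17 (0.57) completed the list of lowest p. DAPL1, a death-associated protein relative, was at 8.0, 7.82 and 7.86 in HR3 and 6.44, 7.72 and 6.82 in LR3 (0.90 ± 0.26). TMEM119 was at 7.45, 7.24 and 7.06 in HR3 and 5.66, 7.01 and 6.68 in LR3, and its difference of 0.80 was 0.41 without LR3 pool 1. CTTNBP2NL, which binds cortactin, was higher by 0.79, and by 0.49 with dap as a covariate. MRGPRF, TMEM119 and CTTNBP2NL passed the filter only through HR3, where they were high.

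Some transcripts were highest in HR3 pools 2 and 3, with pool 1 nearer to the LR3 pools. COPZ1, a subunit of the COPI coat of Golgi vesicles, was at 6.7, 7.92 and 7.67 in HR3 and 5.97, 6.61 and 6.47 in LR3, with a difference of 1.08 ± 0.31. The probe set annotated to INS, the insulin gene, was at 5.27, 8.27 and 7.50 in HR3 and 5.4, 5.19 and 5.14 in LR3. Whether this probe set measures insulin transcript was not tested. Its HR3 pool 1 lay among the LR3 pools, and the difference was 1.77 ± 0.54. Without HR3 pool 1 it was the gene of lowest adjusted p (0.00291), but leaving out the HR3 pool nearest to LR3 had to widen the difference. EIF4H, a partner of the helicase eIF4A, showed 5.75, 7.28 and 6.80 in HR3 and 5.27, 5.76 and 5.62 in LR3 (1.06 ± 0.31). NCOR1, a corepressor of nuclear receptors, showed 7.25, 8.18 and 8.17 against 6.91, 7.55 and 6.96 (0.73 ± 0.27). TGIF1, a repressor of TGF-beta responses, showed 6.84, 7.44 and 7.50 against 6.45, 6.84 and 6.38 (0.70 ± 0.21). TGIF1 passed the filter only through HR3, where it was high. The same pools 2 and 3 had the least negative dap and thr values. These genes were grouped for a pool 1 near the LR3 pools, a pattern that dap shares. Smaller differences with dap therefore followed largely from the grouping, and their cause was not tested. With dap as a covariate the differences were 0.58 for COPZ1, 0.87 for INS, 0.52 for EIF4H, 0.18 for NCOR1 and 0.34 for TGIF1. CALR, a chaperone of the endoplasmic reticulum, went from 0.84 to 0.25, and the proteasome subunit PSMD13 from 0.58 to 0.21.

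Most collagens and matrix proteins were higher in HR3. Of 38 tested members 33 were higher in HR3 and 5 lower, and their median difference was 0.51 beside 0.02 over all tested genes. At an unadjusted p under 0.05, 3 members were higher and none lower (7.89% beside 6.21% of all genes), and for most members the difference was small against the spread between pools. That count was 14 with thr as a covariate, 4 with dap, 5 without LR3 pool 3 and 3 or 4 without any other pool. COL26A1 was at 6.96, 6.92 and 7.12 in HR3 and 5.62, 6.05 and 6.59 in LR3 (0.91 ± 0.21). It passed the filter only through HR3, where it was high. TGFBI, which links collagen to integrins, was at 9.98, 9.90 and 9.88 in HR3 and 8.68, 9.83 and 9.09 in LR3 (0.72 ± 0.23, and 0.46 without LR3 pool 1). The proteoglycan biglycan (BGN) was at 8.21, 8.56 and 8.17 in HR3 and 7.20, 7.83 and 7.66 in LR3 (0.75 ± 0.27), with a second probe set at 0.35. COL1A1 (0.62), COL3A1 (0.60), COL1A2 (0.44) and fibronectin FN1 (0.47) were higher without passing the unadjusted limit. PLOD2, which hydroxylates lysine in collagen, was the lowest member at -0.34.

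Stroma markers lay higher with the matrix genes, many of which they share. Of 13 tested markers 12 were higher, with a median of 0.60, and none had an unadjusted p under 0.05. With thr as a covariate 6 were higher at that limit, and with array weights 2 were higher and 1 lower. Lumican (LUM) was at 10.81, 11.30 and 10.98 in HR3 and 9.21, 11.01 and 10.62 in LR3. Decorin (DCN) was at 11.11, 11.39 and 10.83 in HR3 and 9.36, 10.89 and 10.53 in LR3. The gelatinase MMP2, which passed the filter only through HR3, was at 8.28, 8.43 and 7.84 in HR3 and 6.64, 7.81 and 7.60 in LR3. LR3 pool 1 was by far the lowest pool for all 3 genes. The mean log2 level of 11 stroma markers was 9.30 to 9.60 in HR3 and 8.41 to 9.31 in LR3, and 8.41 was that of LR3 pool 1. Without this pool the list medians were 0.21 for the matrix genes and 0.28 for the stroma markers. With dap as a covariate they were 0.27 and 0.27, and with thr 0.95 and 1.17.

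Epithelial markers differed less. Of 10 tested, 8 were higher with a median of 0.13, which turned to -0.10 with thr as a covariate, and none had an unadjusted p under 0.05 by the probe set of highest mean signal. CDH1 was at 0.16 by that probe set and at 0.96 by a second (unadjusted p = 0.0054). KRT7 was the member of lowest p (0.46 ± 0.23). The mean log2 level of 13 epithelial markers was 10.06 to 10.39 in HR3 and 10.10 to 10.16 in LR3. Motile cilium genes had 13 of 17 higher with a median of 0.12, which was -0.03 without HR3 pool 2. The intraflagellar transport protein IFT52 was at 8.55, 8.53 and 8.41 in HR3 and 8.05, 8.13 and 8.33 in LR3 (0.33 ± 0.14). Macrophage genes had 15 of 18 higher with a median of 0.17, and -0.10 with dap as a covariate, with APOE at 0.54 ± 0.20 (0.32 without HR3 pool 2, 0.20 with dap) and CD68 at 0.28.

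**Figure D3:**
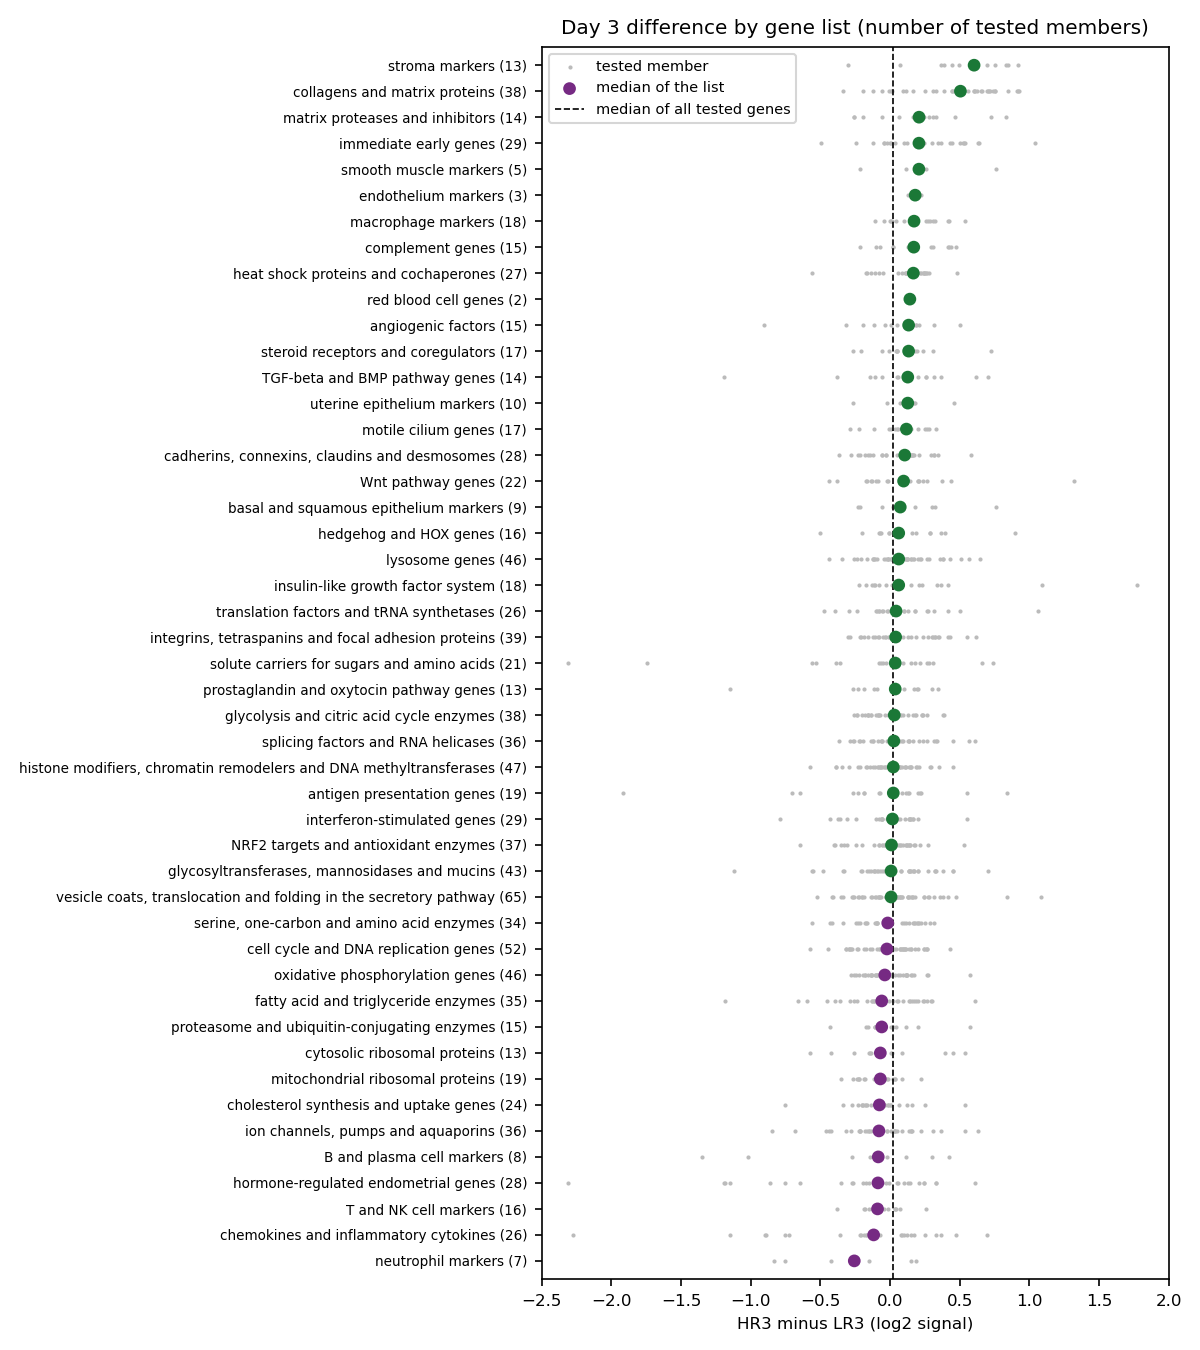
For each of 47 gene lists the HR3 minus LR3 difference in log2 signal of the tested members (grey points), their median (coloured point) and the median of all tested genes (dashed line, 0.02) are shown, with the number of tested members in brackets. Stroma markers (0.60) and collagens and matrix proteins (0.51) lie farthest to the right, and neutrophil markers (-0.26) farthest to the left.

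Lysosome genes gave the largest number with an unadjusted p under 0.05 in one direction. Of 46 tested members 7 were higher and none lower at that limit (15.2% beside 6.21%), while the list as a whole had 30 higher and 16 lower with a median of 0.06. The lysosomal transporter ATP13A2, named above as lower at that limit (-0.45), is not a member of this list, so these counts depend on the choice of members. LAPTM4A, a lysosomal membrane protein, was at 11.35, 11.92 and 11.60 in HR3 and 11.25, 11.22 and 10.87 in LR3 (0.51 ± 0.18). The proton pump subunit ATP6V1A was at 8.02, 7.83 and 8.23 in HR3 and 7.37, 7.64 and 7.78 in LR3 (0.43 ± 0.16), and ATP6V1C1 was higher by 0.28. Cathepsin K (CTSK), a collagen-degrading protease, was at 8.55, 8.95 and 8.89 in HR3 and 7.73, 8.48 and 8.25 in LR3 (0.64). Cathepsin A (0.36), the sphingolipid activator precursor PSAP (0.38) and TMEM9 (0.57) made up the rest. The count was 1 without HR3 pool 2 or pool 3, 2 without LR3 pool 1, 4 without LR3 pool 3 and 0 with dap or thr as a covariate.

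Integrins, tetraspanins and focal adhesion proteins had 24 of 39 higher and 15 lower with a median of 0.04. With an unadjusted p under 0.05, 6 were higher and none lower (15.4% beside 6.21% of all tested genes). Of the tested members, 8 belong to pathway lists that the study chose on these same pools and are no independent evidence of direction. They include ITGAV, CAPNS1, TSPAN3, RHOB and MAP2K1, so that of the 6 only CD81 is not from those lists. The 15.4% can therefore not be read against the 6.21%. ITGAV, an integrin subunit that binds vitronectin and fibronectin, was at 9.83, 9.95 and 10.00 in HR3 and 9.27, 9.48 and 9.18 in LR3. The difference was 0.62 ± 0.14, and a second probe set gave 0.73. The calpain small subunit CAPNS1 (0.55, with a second probe set at 0.03), the tetraspanins TSPAN3 (0.35) and CD81 (0.42), the kinase MAP2K1 (0.34) and the GTPase RHOB (0.43, with a second probe set at -0.08) followed. The count was 2 without HR3 pool 2 or pool 3, 3 without LR3 pool 1 and 1 with dap or thr as a covariate.

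Immediate early genes, which cells transcribe within minutes of a stimulus, had 22 of 29 higher and 6 lower with a median of 0.21. CCN1, a matricellular protein, was at 10.69, 10.78 and 10.67 in HR3 and 9.74, 10.22 and 10.27 in LR3 (0.64 ± 0.25). The transcription factor genes FOS (9.49, 11.15 and 8.33 in HR3 against 8.37, 8.33 and 9.14 in LR3) and ATF3 (8.24, 10.38 and 7.70 against 7.94, 8.14 and 8.73) had their highest value in HR3 pool 2, and the other pools of the groups overlapped. Without that pool the median of the list was 0.07. Heat shock proteins and cochaperones had 20 of 27 higher with a median of 0.17, which was 0.04 without LR3 pool 1 and 0.015 with dap as a covariate. The cochaperone DNAJB1 was at 9.38, 9.81 and 9.60 in HR3 and 8.92, 9.20 and 9.22 in LR3 (0.48 ± 0.15).

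Transporters and pumps held differences in both directions. Of 21 tested solute carriers for sugars and amino acids 11 were higher and 10 lower, and 2 and 3 of them, respectively, had an unadjusted p under 0.05 (23.8% beside 6.21%). SLC3A2, the heavy chain shared by several amino acid transporters, was at 7.77, 8.43 and 8.78 in HR3 and 7.53, 7.78 and 7.46 in LR3 (0.74 ± 0.21, and 0.33 with dap as a covariate). The nucleoside transporter SLC29A1 was at 6.98, 6.96 and 6.93 in HR3 and 5.75, 6.64 and 6.49 in LR3 (0.66 ± 0.24, and 0.39 without LR3 pool 1). SLC29A1 passed the filter only through HR3, where it was high. Among 36 channels, pumps and aquaporins 15 were higher and 21 lower. The Golgi calcium pump ATP2C1 was at 10.91, 11.29 and 11.33 in HR3 and 10.55, 10.84 and 10.24 in LR3 (0.63 ± 0.21). The zinc transporter SLC39A1 (0.36) and the epithelial sodium channel subunit SCNN1A (0.54, and 0.24 without LR3 pool 1) were also higher.

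Hormone-regulated endometrial genes were not shifted as a list, with 11 higher and 17 lower of 28 and a median of -0.09. SLC5A1, FABP3 and PIP, described above, were its 3 members with an unadjusted p under 0.05 (10.7% beside 6.21% of all tested genes), and none was higher at that limit. Steroid receptors and coregulators had 13 of 17 higher with a median of 0.13, which was -0.03 without LR3 pool 1 and 0.025 with dap as a covariate. Prostaglandin and oxytocin pathway genes had 7 higher and 6 lower with none under the limit. PTGS2, the inducible cyclooxygenase, was at 4.82, 5.89 and 5.93 in HR3 and 8.36, 5.79 and 5.94 in LR3, so that LR3 pool 1 alone was high.

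Genes of basic metabolism and growth lay close to the middle. Cell cycle and DNA replication genes had 24 higher and 28 lower of 52 with none under the limit. Oxidative phosphorylation genes had 18 higher and 28 lower of 46 with a median of -0.04. The complex I subunit NDUFS3 was the single one under the limit (2.17% of the list), at 0.57 ± 0.23, and 0.38 without HR3 pool 3. Mitochondrial ribosomal proteins had 14 of 19 lower with a median of -0.07, and genes of cholesterol synthesis and uptake 18 of 24 lower with a median of -0.08. PMVK, a kinase of the mevalonate pathway, was at 6.64, 5.92 and 5.99 in HR3 and 7.52, 6.67 and 6.63 in LR3 (-0.76 ± 0.27, and -0.47 without LR3 pool 1). Glycolysis and citric acid cycle enzymes had 21 higher and 17 lower of 38. Among genes of the antioxidant response 19 were higher and 18 lower of 37, and glutathione reductase GSR was lower with 8.28, 8.36 and 8.39 in HR3 and 8.63, 8.69 and 8.70 in LR3 (-0.33 ± 0.12).

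The machinery of translation, splicing and protein turnover showed no common direction. Translation factors and tRNA synthetases had 14 of 26 higher and 12 lower. At an unadjusted p under 0.05 (15.4% beside 6.21% of all tested genes), EIF4H, EIF4G3 (0.41) and EIF5 (0.50) were higher and EIF2A (-0.47) lower. Cytosolic ribosomal proteins had 6 higher and 7 lower of 13, with 1 higher and 2 lower at that limit (23.1%). RPS7 was at 8.32, 8.27 and 8.0 in HR3 and 8.78, 8.27 and 8.82 in LR3 (-0.43 ± 0.18), and RPL19 was lower by a similar amount (-0.57), with overlapping pools for both. Splicing factors and RNA helicases had 21 higher and 15 lower of 36. SRSF1, a splicing regulator, was at 8.17, 8.39 and 8.67 in HR3 and 7.94, 8.03 and 7.91 in LR3, and its 2 probe sets gave 0.45 and 0.60. Proteasome and ubiquitin-conjugating genes had 6 higher and 9 lower of 15, and genes of chromatin modification 26 higher and 21 lower of 47. The arginine methyltransferase PRMT3 was lower (-0.39 ± 0.16) and the histone demethylase KDM3A higher (0.29 ± 0.13), both without overlap of pools. In the secretory pathway 36 were higher and 29 lower of 65, with 3 of each direction under the limit (9.23% beside 6.21% of all tested genes). Beside COPZ1 and CALR, the adaptor subunit AP3B1 (0.31) was higher, and SDF2L1 (-0.52), SRP72 (-0.34) and the chaperone DNAJB11 (-0.41) were lower.

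Signaling and vascular lists were likewise divided. Wnt pathway genes had 12 higher and 10 lower of 22 with none under the limit. SFRP4, a secreted Wnt antagonist, was at 8.08, 9.72 and 8.58 in HR3 and 5.37, 8.79 and 8.25 in LR3. LR3 pool 1 alone was low, and the SFRP4 difference of 1.32 was 0.27 without that pool. SFRP4 passed the filter only through HR3, where it was high. TGF-beta and BMP pathway genes had 9 higher and 5 lower of 14, with TGIF1 as the 1 member under the limit (7.14%). Genes of the insulin-like growth factor system had 11 higher and 7 lower of 18, with the probe set annotated to INS under it (5.56%). Angiogenic factors had 10 higher and 5 lower of 15. The receptor FGFR3 was at 6.71, 6.0 and 5.63 in HR3 and 6.85, 6.59 and 7.61 in LR3 (-0.90 ± 0.39, -0.61 without LR3 pool 3 and -0.13 with dap as a covariate). Matrix proteases and inhibitors had 10 higher and 4 lower of 14, and complement genes 12 higher and 3 lower of 15 (median 0.17, and 0.025 without LR3 pool 1), with none under the limit in either list. Cadherins, connexins, claudins and desmosome genes had 16 higher and 12 lower of 28, with none under the limit by the probe set of highest mean signal. CDH1, or E-cadherin, was at 12.44, 12.49 and 12.51 in HR3 and 12.27, 12.43 and 12.27 in LR3 (0.16 ± 0.14), and its second probe set gave 0.96 (unadjusted p = 0.0054). The desmosomal PKP2 was higher by 0.29, and its second probe set by 0.49 (unadjusted p = 0.0209). Among 5 smooth muscle genes smoothelin (SMTN) was higher by 0.76, and its pools overlapped.

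**Figure D4:**
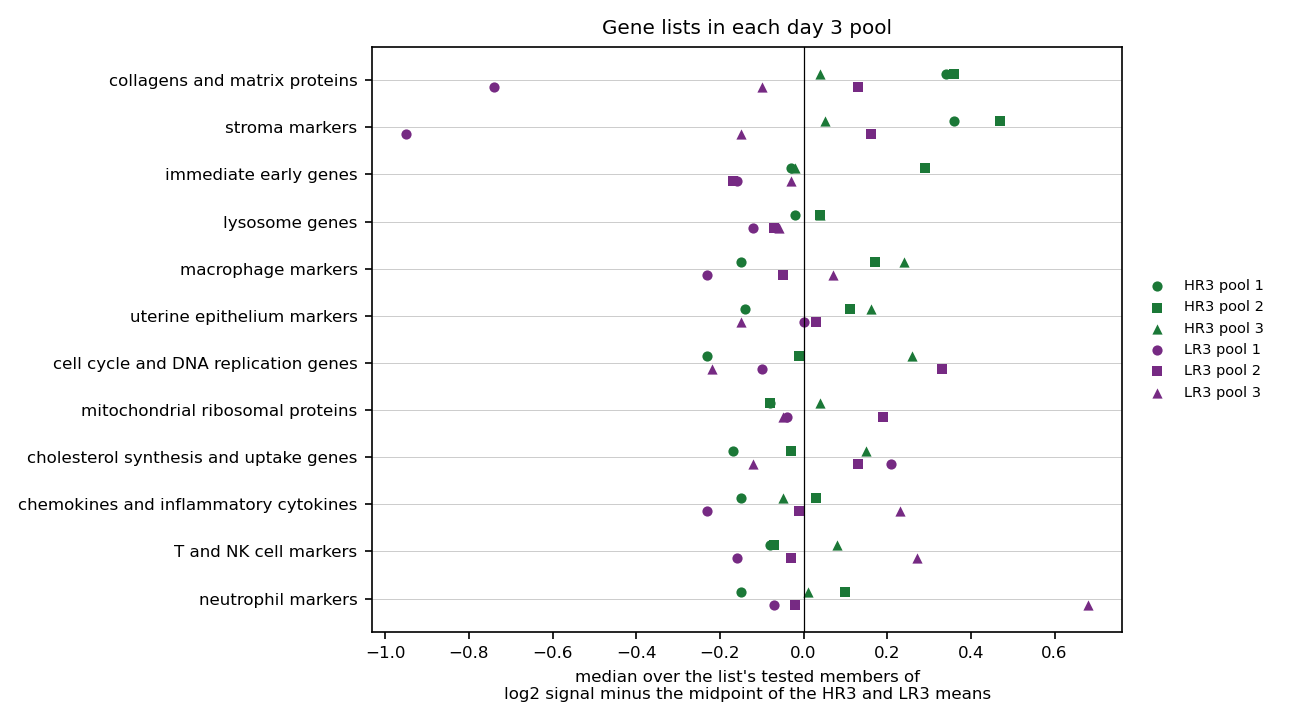
For 12 gene lists the median over the tested members of log2 signal minus the midpoint of the HR3 and LR3 means is plotted on the x axis for each of the 6 day 3 pools. LR3 pool 1 stands at -0.95 for stroma markers and -0.74 for collagens and matrix proteins, and LR3 pool 3 at 0.68 for neutrophil markers.

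Single pools differed from the others of their group in named genes, by description only and chosen after their values were seen. The MHC class II gene BOLA-DQA5 was at 4.19, 9.50 and 4.75 in HR3 and 7.13, 8.82 and 8.25 in LR3. The complement regulator C4BPA ran from 10.51 in HR3 pool 1 to 7.76 and 6.11 in the other HR3 pools. LR3 pool 1 had the highest values of carbonic anhydrase CA2 (10.51 beside 7.71 and 8.36) and of the retinol carrier RBP4 (9.86 beside 7.42 and 7.61). LR3 pool 3 had the highest value of the calcium-activated chloride channel regulator CLCA1 (9.49 beside 6.61 and 5.53) and the lowest of the mitotic gene CENPF (7.04 beside 9.37 and 10.17).

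The day 3 difference was set against the HR7 minus LR7 difference of day 7 in one model. The 2 differences did not differ for any probe set after adjustment (0 of 7336, 0.0%), and 286 (3.90%) had an unadjusted p under 0.05 in limma. For SLC5A1 the day 7 pools measured 8.29, 8.86 and 8.67 in HR7 and 8.11, 8.35 and 8.0 in LR7. All 6 lay above every day 3 pool, and the difference of the differences was -2.77 (unadjusted p = 0.00022, adjusted p = 0.269). LY6G6C likewise was at 9.57, 10.44 and 10.08 in HR7 and 9.53, 9.60 and 9.08 in LR7, with -2.28 for the difference of the differences (unadjusted p = 0.00374). DISP1 differed by 0.90 at day 3 and 0.02 at day 7.

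Of the 30 genes named for low p or large difference, 22 had the same sign at day 7, and 9 had pools without overlap in the same direction at both days. The share of all tested genes with the same sign at both days was not counted. The day 7 signals of FUT1 were 6.82, 5.81 and 6.11 (HR7) and 7.09, 7.26 and 7.92 (LR7), and its difference was -1.12 at day 3 and -1.18 at day 7. PIP was at 8.39, 8.53 and 8.15 in HR7 and 9.22, 9.85 and 9.13 in LR7, with -0.75 at day 3 and -1.04 at day 7. TMEM220 was at 8.32, 8.31 and 8.62 in HR7 and 8.85, 8.97 and 8.96 in LR7, with -0.75 and -0.51. Over all tested genes, 24 (0.634%) were without overlap in the same direction at both days and 4 (0.106%) in opposite directions. The 30 were chosen among the 216 higher and 165 lower genes without overlap at day 3, so 9 of 30 cannot be set against 0.634%. YPEL3, PKD2 and TMEM43 were higher at both days without overlap, and PISD, SZRD1 and ATP13A2 lower.

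**Figure D5:**
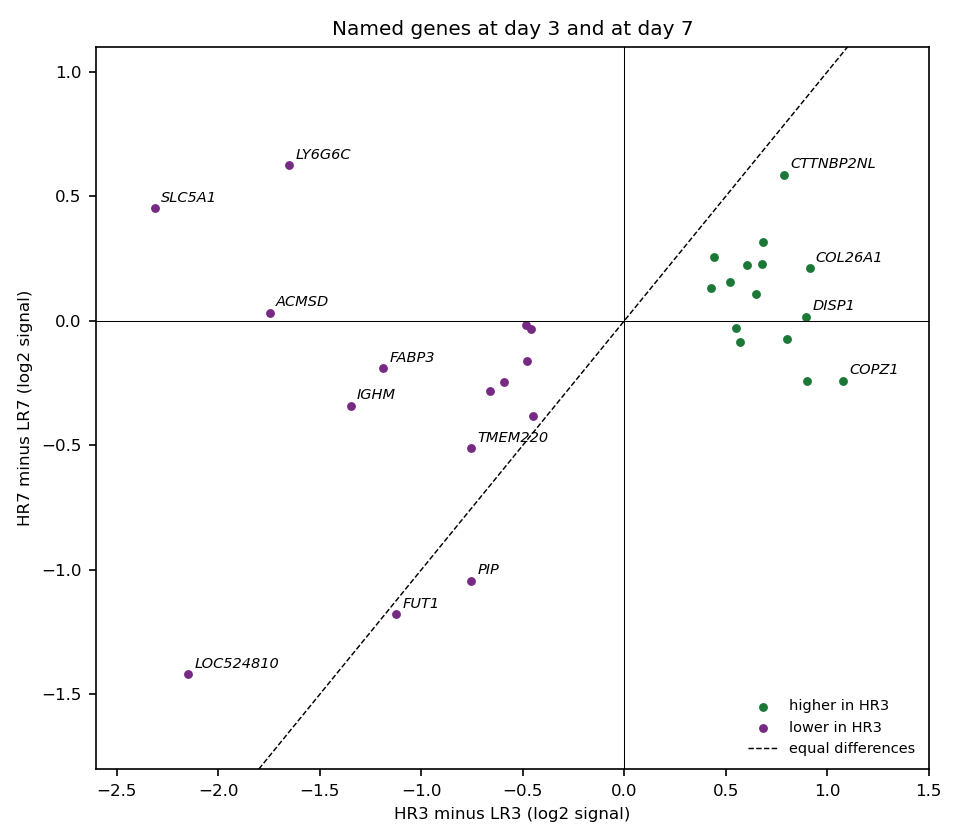
The HR3 minus LR3 difference (x axis) is plotted against the HR7 minus LR7 difference (y axis), both in log2 signal, for the 30 genes named at day 3. FUT1 lies near the dashed line of equal differences at -1.12 and -1.18, whereas SLC5A1 has -2.31 at day 3 and 0.45 at day 7.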

How the data were processed

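Each of the 12 arrays (Affymetrix GeneChip Bovine Genome) measured 1 pool, 3 pools for each of the 4 groups. Per the labels, the authors scanned the arrays in GCOS 1.1.1 and summarized probes by PLIER in Affymetrix Expression Console. The deposited log2 values were used unchanged. Of 24128 probe sets, 112 controls were set aside. The platform annotation gave 13296 of the others 1 symbol, 82 several and 10638 none. The present calls that the study filtered on were not used here. In their place a probe set had to exceed the median of its array on each array of 1 or more groups, with a standard deviation of at least 0.2 as in the study.

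Differences were estimated in limma 3.58.1 (R 4.3.3) from all 12 arrays with 1 mean per group, with Benjamini-Hochberg adjustment over 7336 probe sets. The study judged unadjusted p values from a mixed model, so counts at an unadjusted p under 0.05 are given too. Where several probe sets map to a gene, that of highest mean signal stands for it. Genes were named as follows: per direction the 12 of lowest p and the 6 of largest difference at an unadjusted p under 0.05, both without overlap of pools and outside the study's day 3 pathway lists, and up to 3 of lowest p in each of 47 gene lists. Further list members were named after their values were seen. Members and lists were chosen with earlier results of these data known. Of 3146 list entries, 2228 matched a symbol, 32 an older symbol, 26 a synonym and 860 none. Summaries were made with pandas 2.3.3 and numpy 2.4.6 under Python 3.11.15. The number of arrays limits the precision, and the labels do not say that pools of a group share no animals, so p values measure the spread between pools.

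In simulated data for HR3 against LR3 with 7336 probe sets, true log2 differences of 0.5, 1, 2 and 3 were recovered after adjustment in 26%, 76%, 92% and 98% of cases. In addition, 9 probe sets without a true difference were called. The simulated noise was normal and independent between probe sets. It lacks deviations that many probe sets of a real pool share, so these shares may not hold for the real pools. Alternatives covered filters, scaling, variance models, covariates, a replicate block and leaving out each pool.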

Additional observations from a re-analysis of the deposited data

Results flagged for a closer look

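For 4 genes the HR and LR pools did not overlap at either day and the direction turned between day 3 and day 7. S100A12 was lower in HR3 (-0.83) and at day 7 measured 12.04, 13.09 and 12.43 in HR7 and 11.28, 11.91 and 11.16 in LR7 (1.07), a difference of the differences of -1.90 (unadjusted p = 0.00187). For CAV2, which builds caveolae, it was -0.70 (unadjusted p = 0.00512), for IFT52 0.61 (unadjusted p = 0.00734) and for VCAM1 0.78 (unadjusted p = 0.0223). At a single day the unadjusted p in limma was 0.0687 for CAV2 at day 3, and 0.0548 for IFT52 and 0.164 for VCAM1 at day 7. The day 3 difference of VCAM1 was 0.18 without LR3 pool 1. The 4 genes (0.106% of 3784 tested) were chosen for this pattern, and 24 genes (0.634%) were without overlap in the same direction at both days. The adjusted p in limma was 1.0 for each of the 4. CAV2 has a second probe set with a day 3 difference of 0.02. Groups of 3 pools are too small for a test of single outlying pools.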

How the results depend on the processing

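The count of 516 probe sets at an unadjusted p under 0.05 was 1209 without the limit relative to the array median, 907 without the limit on the standard deviation, 1238 with array weights, 162 with dap and 266 with thr as a covariate, and 242 with the mean over the probe sets of a gene, which tests fewer entries. Leaving out 1 pool gave 251 (HR3 pool 2) to 881 (HR3 pool 1), with 268 without HR3 pool 3 and 288 without LR3 pool 1. After adjustment the count of 0 became 1 without the median limit (an unnamed probe set listed at 0 in all LR3 pools), 2 with array weights, and 0 to 5 on leaving out a pool (5 without HR3 pool 1, 1 without LR3 pool 3). It stayed 0 at an adjusted p under 0.16. For the difference between the days, the count of 286 was 753 without the median limit, 184 above the 60th percentile, 455 without the limit on the standard deviation, 699 with array weights, 103 with dap, and 156 (without HR3 pool 2) to 547 (without HR3 pool 1) on leaving out a pool. After adjustment it was 1 without the median limit, 1 with thr, and 0 to 2 on leaving out a pool. The cause of these shifts was not tested.

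Pool numbers are shared by the groups in the labels. Deviations of HR3 and LR3 pools of the same number correlated at -0.08, -0.03 and -0.47 across probe sets, and 0 of 3 HR3 pools correlated best with its own number, so the numbers were not taken to pair HR3 with LR3. Between the days, same-numbered LR3 and LR7 pools correlated at 0.20, 0.21 and 0.46, and HR3 and HR7 pools at 0.12, 0.002 and -0.06, so the LR pools of one number may not be independent. With the replicate block 532 probe sets had an unadjusted p under 0.05 (297 for the difference between the days) and 0 passed adjustment in either comparison.

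All 30 genes named for low p or large difference kept their direction in every alternative that held them, and 13 kept an unadjusted p under 0.05. Because the 30 were chosen for pools without overlap, leaving out 1 day 3 pool could not turn their direction. Of all 107 named genes, 45 shrank by over 1.5 times or turned on leaving out some pool and 40 with dap. Among the other named genes 7 turned: with dap RAMP2 (-0.30), EMCN (-0.27), C1QC (-0.14) and SFRP4 (-0.44), with thr AHSP (-0.006) and PKM (-0.10), and on leaving out a pool RAMP2 (-0.10 to 0.52, negative without LR3 pool 1) and C9 (-0.35 to 0.012, positive without LR3 pool 3). Of 893 list medians under alternatives, 845 moved by less than 1 SD of the pools and 48 by more, 15 of these with thr.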
